A study of Mus musculus with 4 samples.

Results

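Replication-dependent histone mRNAs were examined in RNA immunoprecipitates (RIP) of LARP7 from mouse testis. The members were the gene models whose symbol begins with Hist1h, Hist2h, Hist3h or Hist4h. The 3 models that encode testis forms, Hist1h1t, Hist1h2ba and Hist1h2aa, were left out. This gave 67 of the 50600 gene models in each library, 5 of them for H1, 19 for H2a, 18 for H2b, 12 for H3 and 13 for H4. Both groups used testes of C57BL/6 mice aged 8 weeks, with no genetic change or treatment given in the labels. The groups were 2 libraries made with an antibody to LARP7 and 2 libraries made with IgG, the control for RNA that binds beads and antibody without LARP7. The lysate held all cell types of the testis, so more cells of a type and more RNA per cell cannot be told apart. The series calls the 2 libraries of a group biological replicates, but the labels do not say whether they came from separate animals, so each p-value reflects library-to-library spread that may be technical.

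Replication-dependent histone genes are short, mostly without introns, and lie in clusters, and their mRNAs accumulate when DNA is replicated. These mRNAs end in a conserved stem-loop in place of a poly(A) tail, and the end is formed with the U7 small nuclear RNA, which pairs with the pre-mRNA, and with SLBP, which binds the stem-loop. H2A, H2B, H3 and H4 form the nucleosome core, and H1 binds the DNA between cores. LARP7 is a La-related protein that binds the 3′ end of 7SK RNA and keeps it in the 7SK complex, which restrains transcription elongation by P-TEFb. In the testis, replication takes place in spermatogonia and in spermatocytes before meiosis, while spermatids replace most histones with transition proteins and protamines.

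Of the 67 models, 66 matched 1 gene of the RefSeq table for GRCm38.p6, the assembly of mm10. Of these, 52 lie on chromosome 13, 10 on chromosome 3, 3 on chromosome 11 and 1, Hist4h4, on chromosome 6. RefSeq lists 3 of them as pseudogenes, Hist1h2aj, Hist1h2al and Hist3h2bb-ps. Promoters are shown for called models of several classes, for the most counted H4 model and for a pair of near-identical H2a copies, because these carry the results on members that follow. Each sequence is the 150 bases before the RefSeq start on the gene's strand, 5′ to 3′, in GRCm38.p6. Capitals mark motifs on either strand. They are the TATA box core TATAA, the CCAAT box, the octamer ATTTGCAT, the H1 promoter element AAACACA and the H4 promoter element GGTCCG, and a capital ATTGG stands for the CCAAT box read from the other strand. The regions are chr13:23763518-23763667 (+) for Hist1h1a, chr13:23571250-23571399 (+) for Hist1h2bg, chr13:23745522-23745671 (-) for Hist1h3c, chr13:21717478-21717627 (+) for Hist1h3h, chr13:23551669-23551818 (-) for Hist1h4f and chr13:21832198-21832347 (-) for Hist1h4n. The pair of H2a copies has its regions at chr3:96245347-96245496 (+) for Hist2h2aa1 and chr3:96240375-96240524 (-) for Hist2h2aa2.
Hist1h1a: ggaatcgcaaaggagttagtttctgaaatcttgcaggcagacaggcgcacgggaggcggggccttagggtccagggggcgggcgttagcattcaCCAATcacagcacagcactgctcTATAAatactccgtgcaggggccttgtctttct
Hist1h2bg: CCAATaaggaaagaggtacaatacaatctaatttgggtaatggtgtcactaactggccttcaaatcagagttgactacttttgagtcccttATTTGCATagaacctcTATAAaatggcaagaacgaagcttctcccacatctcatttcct
Hist1h3c: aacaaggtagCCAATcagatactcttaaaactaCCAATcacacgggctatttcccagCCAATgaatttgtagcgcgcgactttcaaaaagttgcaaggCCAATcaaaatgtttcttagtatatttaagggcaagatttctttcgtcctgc
Hist1h3h: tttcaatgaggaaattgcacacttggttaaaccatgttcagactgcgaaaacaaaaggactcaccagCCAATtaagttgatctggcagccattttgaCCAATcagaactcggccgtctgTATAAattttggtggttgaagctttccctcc
Hist1h4f: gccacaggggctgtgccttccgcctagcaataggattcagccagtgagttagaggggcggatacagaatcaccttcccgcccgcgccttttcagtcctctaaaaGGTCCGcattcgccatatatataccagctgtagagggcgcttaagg
Hist1h4n: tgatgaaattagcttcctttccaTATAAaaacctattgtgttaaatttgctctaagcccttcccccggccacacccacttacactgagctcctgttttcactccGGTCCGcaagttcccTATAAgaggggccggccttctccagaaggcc
Hist2h2aa1: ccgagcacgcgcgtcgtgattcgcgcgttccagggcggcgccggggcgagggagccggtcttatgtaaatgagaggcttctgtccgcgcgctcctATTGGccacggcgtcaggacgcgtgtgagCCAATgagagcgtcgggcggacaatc
Hist2h2aa2: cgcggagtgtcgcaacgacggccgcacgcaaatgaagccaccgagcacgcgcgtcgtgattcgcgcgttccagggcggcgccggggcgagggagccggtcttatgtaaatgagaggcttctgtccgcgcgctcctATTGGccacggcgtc

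The promoter table held 1 entry for 57 of the members, and the 200 bases before the start were searched in each. CCAAT was found in all 5 H1, all 16 H2a and all 14 H2b promoters, in 8 of 10 H3 promoters and in 3 of 12 H4 promoters, against 29.3% of all 32851 promoters. The other motifs were unevenly spread over the classes. GGTCCG was found in 9 of 12 H4 promoters and in 5.62% of all promoters, and AAACACA in 4 of 5 H1 promoters and in 4.80% of all promoters. ATTTGCAT was found in 6 of 16 H2a and 5 of 14 H2b promoters, in no H1, H3 or H4 promoter, and in 1.38% of all promoters. TATAA was found in 31 of the 57 histone promoters and in 18.5% of all promoters. These matches describe letters in the window and do not show binding by a factor. The promoters of Hist2h2aa1 and Hist2h2aa2 share an unbroken run of 169 of the 250 bases held, shifted by 40 bases, as the shared stretch of their sequences above shows.

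The deposited values were expected counts per gene model, that is, reads as RSEM assigns them, with reads that match several models split between them. Library totals were 4411271 to 6994514 expected counts. Normalisation used TMM factors, which set most genes equal between libraries and ranged from 0.558 to 1.85. Rn7sk, the known partner of LARP7, had 316542 and 931240 counts in the LARP7 libraries, against 38611 and 61786 in the IgG libraries, and rose by 4.53 ± 1.07 on the log2 scale (SE). The mRNA of Larp7 itself fell by 1.46 on the log2 scale, and says nothing of the protein that the antibody binds. Markers of testis cell types moved unevenly, and their part in the histone results was not tested. With TMM, 5 of 8 tested spermatid markers were called lower and none higher, and their summed level was 449.9 and 289.8 CPM (TMM-scaled counts, set to a common library size) in the LARP7 libraries, against 1156 and 1233 in the IgG libraries. Of 6 tested spermatogonial markers 2, Sall4 and Zbtb16, were called higher, and the summed level of the spermatogonial markers was 19.2 and 26.9 CPM with LARP7 and 12.9 and 12.1 CPM with IgG. Sall4, at 8 and 0 counts with IgG, passed the filter on low counts through the LARP7 libraries alone, so its call is no evidence of a difference. None of the 7 spermatocyte markers, 5 Leydig markers or 2 tested markers of peritubular, vascular and blood cells was called, and 1 of 3 tested Sertoli markers, Wt1, was called lower. No marker of these lists was at 0 in every library. Over all tested models, 14.5% were called higher and 9.69% lower with TMM. With library totals 0 spermatogonial markers were called higher and 1 lower, and the log2 ratio of their sum was -0.51. On that scale 8 of 8 spermatid markers were called lower, against 47.1% of all tested models.

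Histone mRNAs made up a small part of every library. All 67 models together had 1250 and 1743 expected counts in the LARP7 libraries, against 1495 and 1182 in the IgG libraries. Summed levels were 325 and 400.1 CPM (TMM) with LARP7, against 117 and 187 CPM with IgG. Both LARP7 libraries thus lay above both IgG libraries on this scale. The means were 362 ± 53.2 CPM with LARP7 and 152 ± 49.6 CPM with IgG (SD, n = 2 each), a ratio of 2.39. Against library totals in place of TMM, the same sums were 224 ± 61.8 and 241 ± 38.2 CPM, a log2 ratio of -0.10 with the groups overlapping. As a share of the counts of all protein-coding models, histone models held 0.126% ± 0.00755 with LARP7 and 0.0603% ± 0.0138 with IgG, and the groups did not overlap. On the authors' TPM, the sums were 9.72 and 24.22 with LARP7 and 42.22 and 36.03 with IgG, with both IgG libraries above. The direction of the histone signal as a whole therefore depends on the scale. With 2 libraries a group, an exact two-sided permutation test could not give a p below 0.33, so no test of a sum is given.

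The 5 classes did not share 1 ratio. The H1 sum was 61.1 and 56.5 CPM (TMM) with LARP7, against 13.5 and 10.1 CPM with IgG, a log2 ratio of 2.31. The H3 sum was 41.7 and 48.0 CPM with LARP7, against 13.5 and 9.49 CPM with IgG, a log2 ratio of 1.96. The log2 ratio was 1.16 for H4, 0.96 for H2b and 0.84 for H2a. With 1 library left out, the ratio ranged from 2.12 to 2.54 for H1, 1.73 to 2.24 for H3, 0.76 to 1.71 for H4, 0.45 to 1.75 for H2b and 0.59 to 1.15 for H2a. Without IgG library 2, H3, H2b and H4 had ratios of 1.73, 1.75 and 1.71, so H3 no longer stood apart from those classes. In each class both LARP7 libraries lay above both IgG libraries on the TMM scale. With library totals the log2 ratio stayed above 0 for H1 at 0.87, without overlap, and for H3 at 0.53, with overlap. It turned below 0 for H2a at -0.53, without overlap, and for H2b at -0.36 and H4 at -0.18, with overlap.

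**Figure D1:**
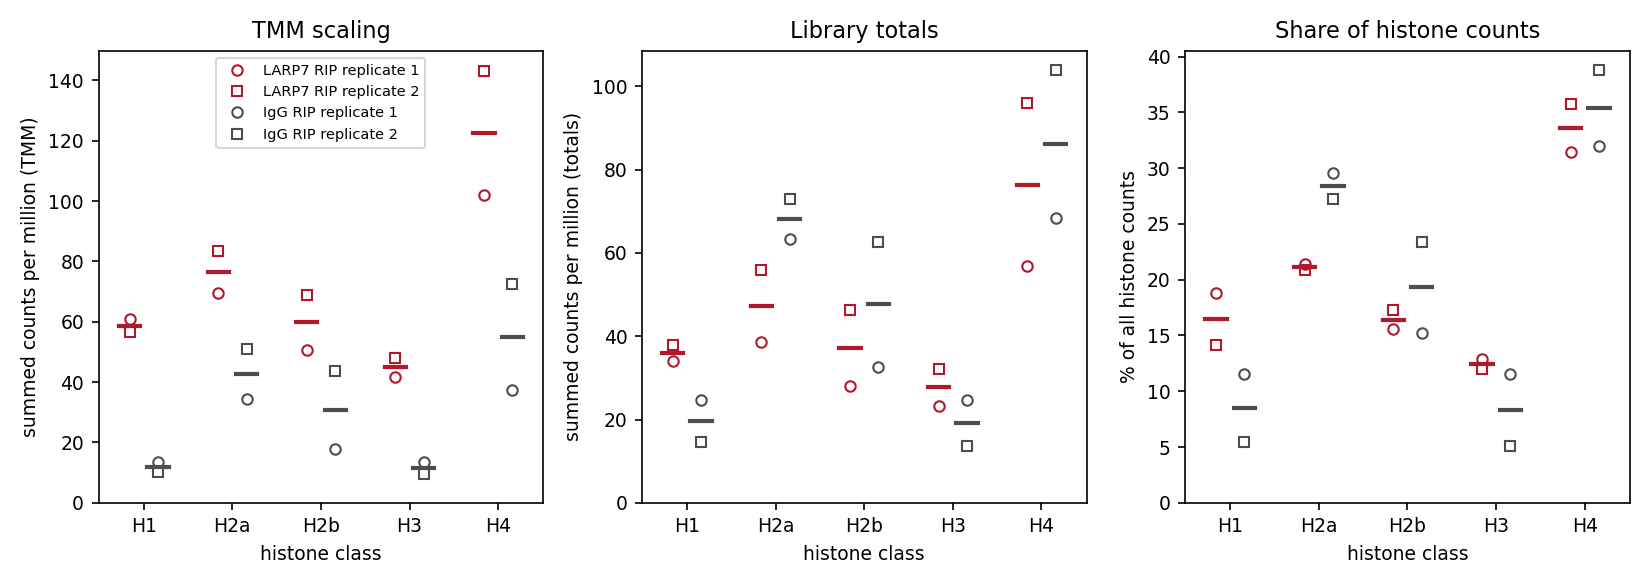
Summed levels of the 5 histone classes in each library, as TMM-scaled CPM (left), CPM on library totals (middle) and percent of all histone counts (right). Points are single libraries and bars are means of 2; H1 held 16.5% of histone counts with LARP7 and 8.49% with IgG, and all classes lay higher with LARP7 on the TMM scale, while H2a, H2b and H4 had lower means with LARP7 on library totals.

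The make-up of the histone counts does not depend on the scaling between libraries. H1 models held 18.8% and 14.1% of histone counts with LARP7, against 11.6% and 5.42% with IgG. H2a models held 21.4% and 20.9% with LARP7, against 29.6% and 27.2% with IgG. H3 models held 12.9% and 12.0% with LARP7, against 11.6% and 5.08% with IgG. The H1 and H3 shares were thus larger in both LARP7 libraries and the H2a share smaller, by margins that in H3 were narrow. The shares of H2b and H4 overlapped between groups, with means of 16.4% and 33.6% with LARP7, against 19.3% and 35.4% with IgG. The H1 difference rested mostly on 1 gene, Hist1h1a. Without it, the other 4 H1 models had a log2 ratio of 1.40 with TMM and 0.04 with library totals, and held 3.85% ± 0.328 of histone counts with LARP7 and 3.42% ± 0.293 with IgG.

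Single models were tested with edgeR's quasi-likelihood F test, adjusted by Benjamini-Hochberg over 12234 gene models at 0.05. Of the 67 histone models, 65 had counts, 32 passed the filter on low counts and 35 did not. Of the 32 tested, 11 were called higher with LARP7 and 0 lower, against a background of 14.5% of all tested models called higher and 9.69% lower. Passing the filter through the LARP7 libraries favoured models that were higher there. Of the 11, 6 reached the filter's count level in both LARP7 libraries but not in both IgG libraries. The other 5 reached it in both IgG libraries, as did 22 of the 32 in all. The 6 were Hist1h1d, Hist1h2ap, Hist1h2bg, Hist1h2bn, Hist1h3g and Hist1h3h, and their p-values below are no evidence of a difference. In all, 7 of the 32 passed in this way, and the median and the counts without overlap below include them. No member was lower at an unadjusted p under 0.05 in edgeR, and DESeq2 called 0 lower. For protein-coding models alone the background was 11% higher and 10.5% lower. The median log2 fold change of the 32 was 1.23, beside -0.05 for all tested models. With library totals, 5 histone models were called higher and 3 lower, against a background of 3.95% higher and 47.1% lower (protein-coding models alone 1.99% and 52.1%). The median was -0.11 beside -1.47 for all models, so that scaling shifted the median of all models by -1.42. In 21 of the 32 models both LARP7 libraries lay above both IgG libraries on the TMM scale, in 0 both lay below, and in 11 the groups overlapped. The corresponding background was 32.9% of all tested models above and 35.5% below.

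**Figure D2:**
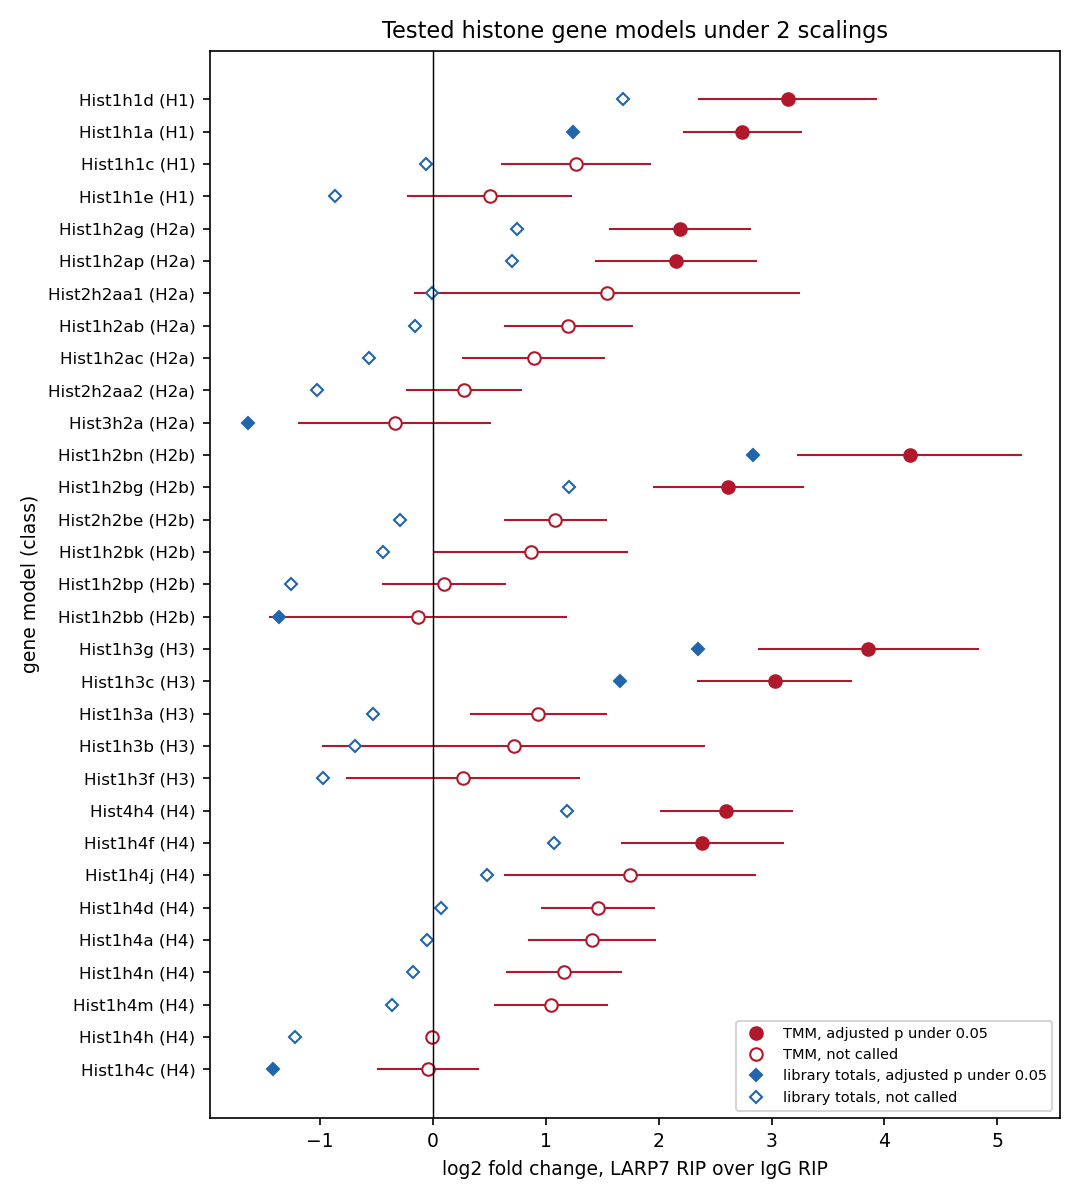
Log2 fold change of LARP7 RIP over IgG RIP for 31 tested histone models, grouped by class, with TMM (circles, bars are SE) and with library totals (diamonds); filled marks have an adjusted p under 0.05, and Hist1h4h has no SE bar. Hist1h3h, at 0 counts in both IgG libraries, is not drawn; diamonds lie left of the circles throughout, and several models near 1 with TMM lie below 0 with library totals.

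H1 had 2 of 4 tested models called higher with LARP7 by TMM, and 1 with library totals. Of the 2, Hist1h1d did not reach the filter's count level in both IgG libraries, so its call is no evidence of a difference. Hist1h1a, a linker histone found in early germ cells of the testis, had 184 and 183 expected counts with LARP7, against 125.03 and 21.18 with IgG. Its TMM-scaled levels were 47.8 and 42.0 CPM with LARP7 and 9.77 and 3.35 CPM with IgG. The LARP7 libraries agreed closely and lay well above the IgG libraries, which differed from each other. The log2 fold change was 2.74 ± 0.52 (SE, adjusted p = 0.00863), and 1.24 with library totals (adjusted p = 0.0276). Hist1h1a supplied 76.3% of H1 counts with LARP7 and 61.7% with IgG. Hist1h1d, another somatic linker histone, had 6.22 and 3.21 CPM with LARP7, against 0.531 and 0.459 CPM with IgG (log2 fold change 3.14 ± 0.78, adjusted p = 0.0185, not called with library totals). Hist1h1c had 4.95 and 7.10 CPM with LARP7 and 1.21 and 4.03 CPM with IgG, and was not called (adjusted p = 0.174). Hist1h1e had 2.08 and 3.24 CPM with LARP7 and 1.54 and 2.29 CPM with IgG, and the groups overlapped. Hist1h1b had 10 counts in all and was not tested.

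H3 had 3 of 6 tested models called higher, and all 3 were also called with library totals, while DESeq2 called 2 of them. Of the 3, Hist1h3g and Hist1h3h did not reach the filter's count level in both IgG libraries. Their calls are no evidence of a difference, and the other settings named here used the same filter. H3 genes of these clusters encode the replication-coupled H3 proteins, and their coding sequences are close to each other. Hist1h3c had 17.94 and 71.42 expected counts with LARP7, against 18.22 and 6.95 with IgG. That is 4.66 and 16.4 CPM with LARP7 and 1.42 and 1.10 CPM with IgG. With TMM the groups were apart although the LARP7 libraries differed from each other (log2 fold change 3.03 ± 0.67, adjusted p = 0.0140). With library totals the Hist1h3c groups overlapped, and its call was lost on TPM and without LARP7 library 2. Hist1h3g had 16.5 and 7.99 CPM with LARP7, against 1.39 and 0 CPM with IgG (log2 fold change 3.86 ± 0.97, adjusted p = 0.0264). The Hist1h3g call was lost with DESeq2, on TPM and without either LARP7 library. Hist1h3h had 19.94 and 11.95 expected counts with LARP7 and 0 in both IgG libraries. Set against 3 counts over the IgG group, it was at least 24.8-fold higher with TMM and at least 9.03-fold higher with library totals (adjusted p = 0.00765). The posterior SD of the Hist1h3h count, the authors' own measure of how surely reads were assigned, reached 0.885 of the count in 1 library, so the level of this model is uncertain.

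Because reads can move between similar H3 copies, the models Hist1h3g, Hist1h3h and Hist1h3i were also summed, a choice made after their values were seen. The sum was 112.12 and 46.75 expected counts with LARP7, against 27.28 and 0 with IgG. Both LARP7 libraries lay above both IgG libraries, with a log2 ratio of 4.23 with TMM and 2.58 with library totals. Because the 3 models were chosen on their values, this gap is no evidence of a difference. The sum over all H3 models, which does not rest on that choice, had 1.96 with TMM and 0.53 with library totals. Hist1h3a and Hist1h3f were not called. Hist1h3a, the most counted H3 model, had 6.91 and 10.6 CPM with LARP7 and 6.90 and 2.09 CPM with IgG, a difference within the spread of the IgG libraries (adjusted p = 0.264). Hist1h3f had 0 and 3.49 CPM with LARP7 and 0.566 and 2.56 CPM with IgG, and the groups overlapped.

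**Figure D3:**
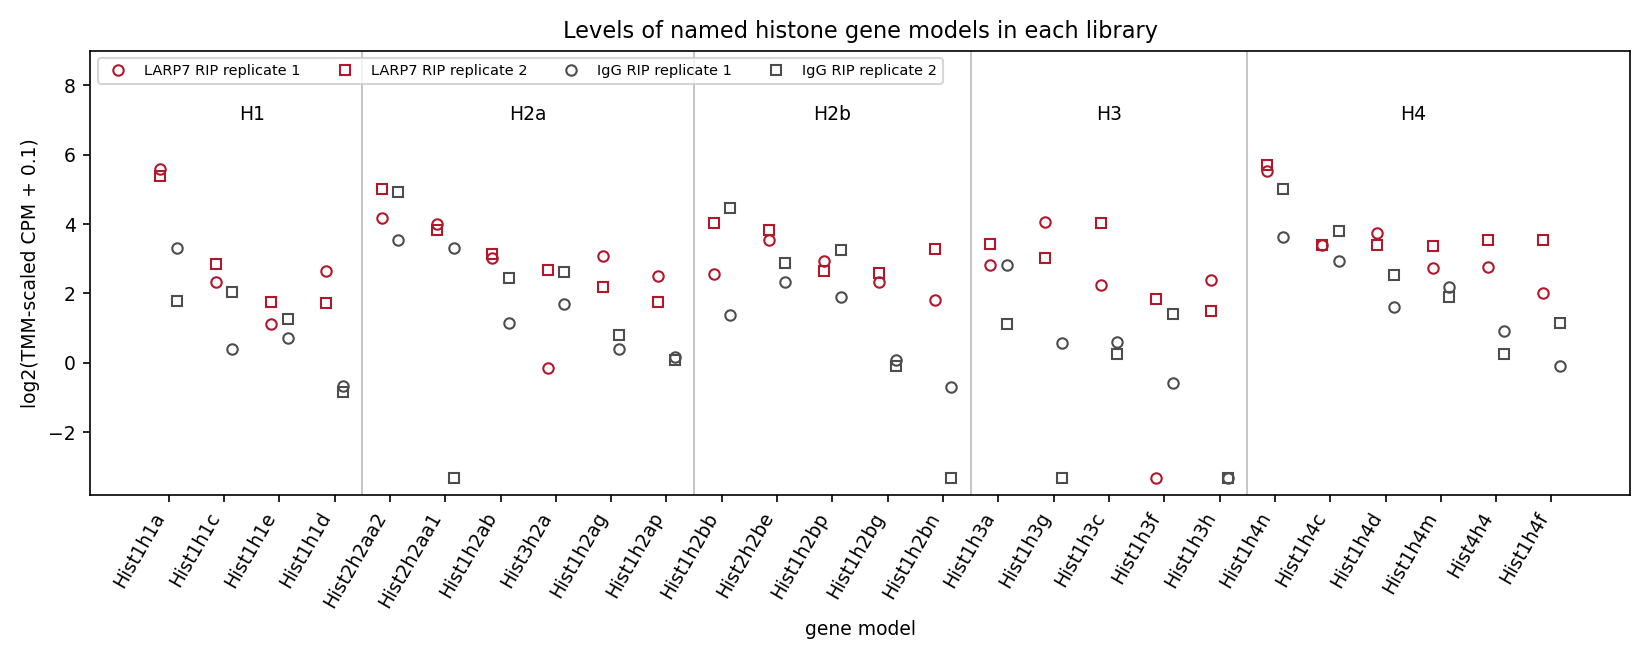
Level of each named histone model in the 4 libraries, as log2(TMM-scaled CPM + 0.1), ordered by class and by total counts; points on the lowest line are 0 counts. Hist1h1a, Hist1h2bg and Hist1h3h show LARP7 points well above the IgG points, while Hist1h2bb, Hist1h4c and Hist2h2aa2 overlap. Hist1h2bg and Hist1h3h did not reach the filter's count level in both IgG libraries, so their gap is no evidence of a difference.

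H4 had 2 of 9 tested models called higher with TMM, and 0 higher and 1 lower with library totals. All H4 genes encode nearly the same core protein. Hist4h4, which lies alone on chromosome 6, had 25.79 and 50.49 expected counts with LARP7, against 22.70 and 6.86 with IgG. Its levels were 6.70 and 11.6 CPM with LARP7 and 1.77 and 1.09 CPM with IgG, without overlap (log2 fold change 2.60 ± 0.58, adjusted p = 0.0137). Hist1h4f had 3.92 and 11.4 CPM with LARP7 and 0.829 and 2.14 CPM with IgG (log2 fold change 2.39 ± 0.71, adjusted p = 0.0357). Neither was called with library totals, where the log2 fold changes were 1.19 for Hist4h4 and 1.07 for Hist1h4f. Hist1h4n was the most counted H4 model and supplied 13.6% of all histone counts with LARP7 and 13.4% with IgG. It had 178.99 and 227.28 expected counts with LARP7, against 158.08 and 201.73 with IgG, and was not called (log2 fold change 1.16 ± 0.50, adjusted p = 0.112). Hist1h4d had 13.2 and 10.4 CPM with LARP7 and 2.98 and 5.70 CPM with IgG, and was just short of a call (adjusted p = 0.0517).

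The remaining tested H4 models were not called with TMM. Hist1h4a, named after its values were seen, had 7.64 and 6.53 CPM with LARP7 and 3.34 and 1.70 CPM with IgG, without overlap (log2 fold change 1.41 ± 0.56, adjusted p = 0.0861). Hist1h4m had 6.55 and 10.2 CPM with LARP7 and 4.49 and 3.65 CPM with IgG (adjusted p = 0.142). Hist1h4c had 10.5 and 10.4 CPM with LARP7 and 7.55 and 13.9 CPM with IgG, a log2 fold change of -0.04 with overlapping groups. With library totals its log2 fold change was -1.41 and it was called lower (adjusted p = 0.0238), close to the -1.47 of the median model on that scale. Hist1h4j and Hist1h4h, named after their values were seen, differed most between LARP7 libraries, with 3.99 and 59.35 expected counts for Hist1h4j and 2.99 and 38.64 for Hist1h4h. Their IgG libraries held 13.67 and 21.50 counts for Hist1h4j and 15.56 and 57.41 for Hist1h4h, so the groups overlapped for both.

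H2b had 2 of 6 tested models called higher with TMM, and 1 higher and 1 lower with library totals. The 2 called higher with TMM, Hist1h2bg and Hist1h2bn, did not reach the filter's count level in both IgG libraries. Their calls are no evidence of a difference. H2B pairs with H2A in the nucleosome core. Hist1h2bg had 19.01 and 25.93 expected counts with LARP7, against 12.14 and 5.32 with IgG. Its levels, 4.94 and 5.95 CPM with LARP7 and 0.948 and 0.842 CPM with IgG, were close within each group and far apart between groups (log2 fold change 2.62 ± 0.66, adjusted p = 0.0201). With library totals its log2 fold change was 1.20 and it was not called. Hist1h2bn had 3.44 and 9.60 CPM with LARP7 and 0.515 and 0 CPM with IgG (log2 fold change 4.22 ± 0.99, adjusted p = 0.0160), and was called with library totals as well. Hist1h2bb held the most H2b counts, and its replicates disagreed in both groups. It had 22.28 and 70.42 expected counts with LARP7, against 31.96 and 139 with IgG, and a log2 fold change of -0.13 ± 1.31. With library totals Hist1h2bb was called lower (log2 fold change -1.36, adjusted p = 0.0304), and without IgG library 2 and with TMM it was called higher (2.17, adjusted p = 0.0187). Hist2h2be had 11.5 and 14.1 CPM with LARP7 and 4.92 and 7.28 CPM with IgG, without overlap but not called (adjusted p = 0.0971). Hist1h2bp had 7.50 and 6.16 CPM with LARP7 and 3.64 and 9.36 CPM with IgG, and the groups overlapped.

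H2a had 2 of 7 tested models called higher with TMM, and 0 higher and 1 lower with library totals. Of the 2, Hist1h2ap did not reach the filter's count level in both IgG libraries, so its call is no evidence of a difference. Hist1h2ag had 32.26 and 19.50 expected counts with LARP7, against 15.71 and 10.49 with IgG. Its levels were 8.38 and 4.48 CPM with LARP7 and 1.23 and 1.66 CPM with IgG, without overlap (log2 fold change 2.19 ± 0.62, adjusted p = 0.0285). Hist1h2ap, whose symbol matches 2 RefSeq loci and which is therefore given no position, had 5.61 and 3.27 CPM with LARP7 and 1.03 and 0.949 CPM with IgG (log2 fold change 2.15 ± 0.71, adjusted p = 0.0470). Both H2a calls were lost with library totals. The Hist1h2ap call was also lost with DESeq2, without the filter, with a replicate block, on TPM and without each library in turn. Hist1h2ab had 8.01 and 8.72 CPM with LARP7 and 2.09 and 5.37 CPM with IgG, and was not called (adjusted p = 0.138). Hist3h2a, on chromosome 11, had 0.792 and 6.33 CPM with LARP7 and 3.17 and 6.10 CPM with IgG, and was called lower with library totals (log2 fold change -1.63, adjusted p = 0.0430).

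The H2a copies Hist2h2aa1 and Hist2h2aa2, whose promoters are shown above, held the most H2a counts. Hist2h2aa1 had 61.64 and 61.44 expected counts with LARP7, against 125.23 and 0 with IgG. Hist2h2aa2 had 68.64 and 140.52 with LARP7, against 146.62 and 192.24 with IgG. In IgG library 2 all reads of the pair were thus assigned to Hist2h2aa2. Neither copy was called, but without IgG library 1, which leaves an IgG count of 0, Hist2h2aa1 was called higher (adjusted p = 9.95e-08). Summed over the pair, counts were 130.28 and 201.96 with LARP7 and 271.85 and 192.24 with IgG. The log2 ratio of the sum was 0.63 with TMM and -0.72 with library totals. The pair held 11% ± 0.824 of all histone counts with LARP7 and 17.2% ± 1.35 with IgG (SD, n = 2 each), without overlap.

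By position, members less than 100000 bases apart were joined into blocks. The largest block, 28 models at chr13:23531044-23764412 in GRCm38.p6, had a log2 ratio of summed counts of 1.39 with TMM and 0.04 with library totals. A block of 18 models at chr13:21715711-21837530 had 1.37 with TMM and 0.02 with library totals, and 5 models at chr13:22035122-22043658 had 1.90 and 0.50. The 10 models at chr3:96219885-96270192 had the lower ratio of 0.68 with TMM and -0.68 with library totals. This chromosome 3 block, which holds Hist2h2aa1 and Hist2h2aa2, made up 15.0% and 16.1% of histone counts with LARP7, against 24.6% and 22.5% with IgG. Both LARP7 libraries were thus below both IgG libraries in this share. The 3 models on chromosome 11 had 0.04 with TMM and -1.27 with library totals. Model length did not separate members. The 10 models longer than 1000 nt had a log2 ratio of 1.22, and the other 57 had 1.26.

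The 35 untested models were thinly covered. Together they had 145.64 and 163.61 expected counts with LARP7, against 155.57 and 66.73 with IgG, which is 37.8 and 37.5 CPM with LARP7 and 12.2 and 10.6 CPM with IgG. Hist1h2ai and Hist1h2an had 0 counts in every library. Of all 67 models, 12 had counts with LARP7 and 0 in both IgG libraries, and 1, the pseudogene Hist1h2al, had counts with IgG only. The share of all gene models in either state was not taken, so this split has no background. Some of these models had very few counts, such as 0.63 in all for Hist2h3c1 and 2.88 for Hist1h2bh. IgG library 2, the shallowest, had 32 models at 0, against 15 in IgG library 1 and 13 and 10 in the LARP7 libraries. In 23 models the posterior SD was over 0.5 of the count in some library, and these held 8.91% of all histone counts.

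Replacement histone genes, whose mRNAs are mostly polyadenylated, were set beside the replication-dependent set. Of the 8 tested, 1 was called higher and 0 lower, near the background of 14.5% of all tested models called higher, with a median log2 fold change of 0.05. The 1 called was H1fx, a linker histone variant, at 8.31 and 10.6 CPM with LARP7 and 3.91 and 1.74 CPM with IgG (log2 fold change 1.69 ± 0.54, adjusted p = 0.0437). H3f3b, which encodes H3.3, had 19.2 and 10.3 CPM with LARP7 and 26.6 and 14.7 CPM with IgG, and H3f3a, of the same protein, had 9.50 and 9.26 CPM with LARP7 and 17.9 and 9.81 CPM with IgG. H2afz, which encodes H2A.Z, had 23.3 and 13.2 CPM with LARP7 and 28.1 and 23.3 CPM with IgG. None of these 3 was called with TMM. H2afx, which encodes the H2A.X of DNA damage signalling, had 9.16 and 20.6 CPM with LARP7 and 7.0 and 13 CPM with IgG, and the groups overlapped. With library totals 4 of the 8 were called lower and 0 higher, against a background of 47.1% of all tested models lower and 3.95% higher.

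The testis forms left out of the set were Hist1h1t, the linker histone of spermatocytes, and Hist1h2ba and Hist1h2aa, which pair in the chromatin of male germ cells. Hist1h1t had 32.0 and 31.9 CPM with LARP7 and 19.9 and 10.9 CPM with IgG (log2 fold change 1.04 ± 0.42, adjusted p = 0.0892). Hist1h2ba had 23.1 and 39.9 CPM with LARP7 and 14.3 and 24.9 CPM with IgG, and the groups overlapped. Hist1h2aa had 5.90 and 11.9 CPM with LARP7 and 3.72 and 3.95 CPM with IgG, and was not called either (adjusted p = 0.105). Among spermatid forms, Hils1, a linker histone of spermatids, was called lower, at 3.38 and 2.75 CPM with LARP7 and 17.3 and 13.3 CPM with IgG (log2 fold change -2.32 ± 0.47, adjusted p = 0.0105). H2al1n had 0 counts in both LARP7 libraries and 15.84 and 12.14 expected counts with IgG (adjusted p = 0.0277). It passed the filter on low counts through the IgG libraries alone, so this p-value is no evidence of a difference. H1fnt, also of spermatids, had 6.50 and 4.82 CPM with LARP7 and 16.1 and 11.7 CPM with IgG, just short of a call (adjusted p = 0.0566).

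**Figure D4:**
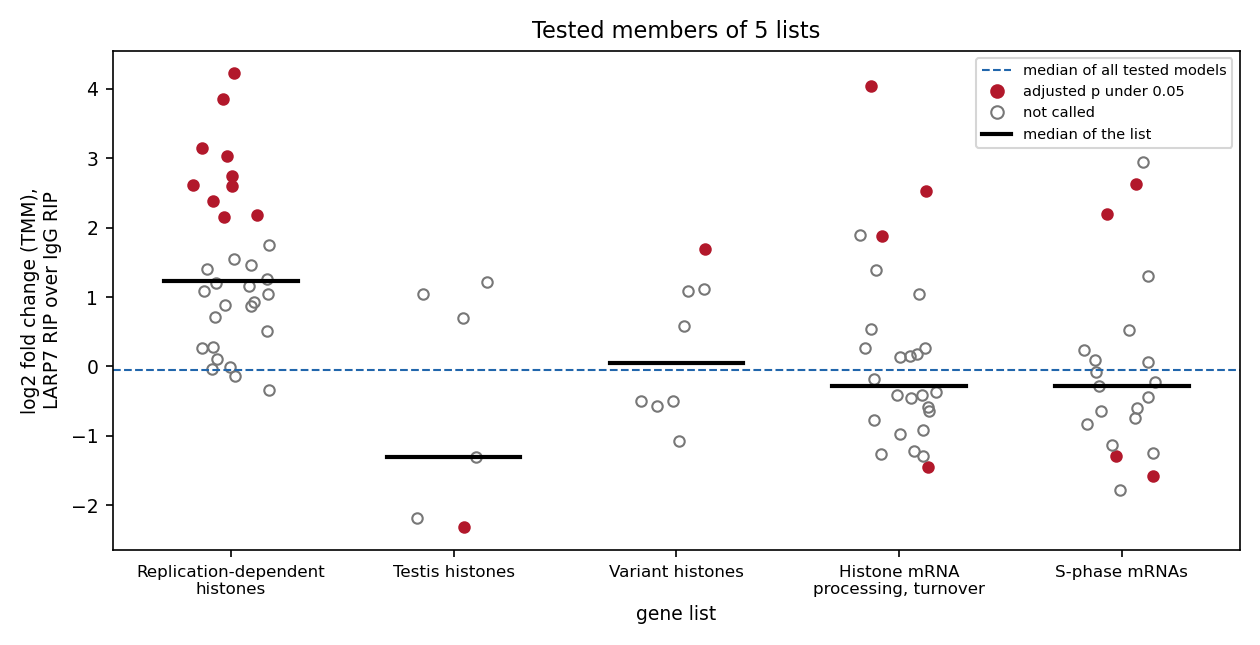
Log2 fold change (TMM) of LARP7 RIP over IgG RIP for the tested members of 5 gene lists; points are gene models, filled where the adjusted p is under 0.05, bars are list medians, and the dashed line is the median of all tested models at -0.05. The replication-dependent histones have a median of 1.23 (-0.11 with library totals) and the variant histones 0.05; Hist1h3h and H2al1n, at 0 counts in 1 group, are not drawn.

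The RNA and mRNAs of the histone 3′ end machinery were set beside the histone mRNAs. Of 26 tested genes of histone mRNA processing and turnover, 3 were called higher and 1 lower, and the median log2 fold change was -0.28. The count called higher is near the background of 14.5% of all tested models, and of 11% of protein-coding ones. Rnu7, the U7 small nuclear RNA that pairs with histone pre-mRNA, had 2083 and 2017 expected counts with LARP7, against 418.78 and 178.90 with IgG. Its log2 fold change was 4.04 ± 0.64 with TMM (adjusted p = 0.00485) and 2.60 with library totals (adjusted p = 0.000177). The mRNAs of this list did not move together. Slbp and Lsm10 are named after their values were seen. Slbp had 23.0 and 17.8 CPM with LARP7 and 20.5 and 16.3 CPM with IgG, with overlap (log2 fold change 0.14 ± 0.38, not called). Lsm10, with 22 counts in all, was not tested, at 0.520 and 0.688 CPM with LARP7 and 0.703 and 1.27 CPM with IgG. The mRNAs of 2 U7 partners were called higher with TMM. Lsm11, of the U7 ring, had 12.4 and 26.8 CPM with LARP7 and 2.84 and 4.14 CPM with IgG (log2 fold change 2.52 ± 0.51, adjusted p = 0.0104). Zfp473, a zinc finger protein that binds the U7 particle, had 9.67 and 13 CPM with LARP7 and 3.67 and 2.43 CPM with IgG (log2 fold change 1.88 ± 0.49, adjusted p = 0.0232). Neither Lsm11 nor Zfp473 was called with library totals. Coil, which encodes coilin of Cajal bodies, was called lower, at 12.2 and 5.97 CPM with LARP7 and 27.2 and 22.1 CPM with IgG (adjusted p = 0.0386). Mif4gd, whose protein binds SLBP, had 54.6 and 66.1 CPM with LARP7 and 28.4 and 30.1 CPM with IgG, without overlap but not called (adjusted p = 0.0993). Sympk, of the cleavage complex, had 23.1 and 32.4 CPM with LARP7 and 23.3 and 23.0 CPM with IgG. Ncbp1, of the cap-binding complex, had 21.3 and 7.80 CPM with LARP7 and 42.7 and 28.0 CPM with IgG (adjusted p = 0.0854).

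Among 21 tested mRNAs of S phase, which are polyadenylated, 2 were called higher and 2 lower, with a median log2 fold change of -0.27. Both counts are near the background of 11% of protein-coding models called higher and 10.5% lower. Cdt1, a replication licensing factor, had 70.1 and 82.7 CPM with LARP7 and 13.5 and 11 CPM with IgG (log2 fold change 2.63 ± 0.46, adjusted p = 0.00645). Gins2, of the replicative helicase, had 29.9 and 34.7 CPM with LARP7 and 7.73 and 6.17 CPM with IgG (log2 fold change 2.20 ± 0.40, adjusted p = 0.00739). Rpa1, which binds single-stranded DNA, had 10.7 and 5.05 CPM with LARP7 and 24.8 and 21.7 CPM with IgG, and was called lower. Chaf1a, a chaperone that deposits new H3 and H4 at forks, had 14.3 and 8.49 CPM with LARP7 and 32.0 and 23.7 CPM with IgG, and was called lower too. Mcm7, a helicase subunit, and Rrm1, of ribonucleotide reductase, had log2 fold changes of 0.07 and 0.09 with overlapping groups.

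The histone calls differed in how they depended on single libraries. The 11 calls include the 6 models, Hist1h3h among them, that did not reach the filter's count level in both IgG libraries. For those 6, a call that is kept is no evidence of a difference. Of the 11 calls, 5 were kept without LARP7 library 1, where 1 model was no longer tested, and 2, Hist1h1a and Hist1h3h, without LARP7 library 2. Without IgG library 1, 8 were kept, and without IgG library 2, 10. Counts of all histone calls ranged from 2 without LARP7 library 2 to 22 without IgG library 2. Hist1h1a was called with TMM, with library totals, with DESeq2 and without each library in turn, but not on TPM.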

How the data were processed

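RNA bound with an antibody to LARP7 or with IgG was sequenced after size selection of 15 to 300 nt (per the labels' protocols), 2 libraries each. The submitters' processing notes name cutadapt, Bowtie2, RSEM and mm10, without versions or settings. The deposited files hold, per gene model, the authors' expected count, their TPM (counts per effective length, scaled to 1 total), the posterior SD of the count and the model's length. From 13.4% to 18.9% of models per library were not whole, so expected counts were rounded for the tests.

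Tests used R 4.3.3 with edgeR 4.0.16 (filterByExpr with a minimum count of 10, TMM, robust quasi-likelihood F tests, two-sided) and Benjamini-Hochberg adjustment over 12234 models at 0.05. The SE of a log2 fold change was taken as its unshrunk size over the root of F, and CPM was computed on TMM-scaled sizes. Alternatives were library totals, DESeq2 1.42.0, no filter, limma 3.58.1 on log2(TPM + 1) and log2(TPM + 0.1), each library left out, a replicate block, and treatments of models that share reads. The test was tried on simulated data. Library totals limit precision: 23 members had under 20 counts over all libraries.

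Members and gene lists were chosen with earlier results of these data known. Named were the 4 most counted members of each class, the 5 largest and 5 smallest called fold changes, for each other list its 4 most counted and its called members if 6 or fewer, and Rnu7, Larp7 and the left-out testis models. Histone symbols were matched to RefSeq genes by symbol or synonym. Replicates were checked to be separate libraries: chi-square per degree of freedom was 124 for LARP7 and 53.4 for IgG.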

Additional observations from a re-analysis of the deposited data

How the results depend on the processing

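Counts of calls are given as higher or lower with LARP7, TMM and the filter being the reported setting. With library totals, 5 histone models were called higher and 3 lower, by class 1 and 0 for H1, 0 and 1 for H2a, 1 and 1 for H2b, 0 and 1 for H4. On TPM, limma called 0 higher with a pseudocount of 1, in every class. With 0.1 it called 1 higher, an H3 model, and 6 lower, 2 each in H2a, H2b and H4. Without the filter 17 were called higher, 5 each in H2b and H3. DESeq2 called 9 higher and 0 lower, 1 of them H2a and 2 in each other class, and kept 9 of the 11 calls, losing Hist1h2ap and Hist1h3g. Leaving out 1 library gave 2 to 22 models called higher, by class 1 to 3 for H1, 0 to 3 for H2a, 0 to 6 for H2b, 1 to 5 for H3 and 0 to 6 for H4, and 0 called lower in each. The cause of these changes was not tested. Shares and medians over all tested models were taken only with TMM and with library totals. Counts and medians of histone models under the other settings therefore have no background here. The median log2 fold change was -0.11 with library totals, -0.24 on log2(TPM + 1), -0.92 on log2(TPM + 0.1), and 1.11 to 2.04 with 1 library left out. The log2 ratio of summed counts with library totals was -0.10 for all members, 0.87 for H1, -0.53 for H2a, -0.36 for H2b, 0.53 for H3 and -0.18 for H4. On TPM another measure was used, the difference between group means of the log2 of summed TPM plus a pseudocount. With a pseudocount of 1 it was -1.28, -0.13, -1.39, -1.15, -0.23 and -1.33 in that order. With 0.1 it was -1.34, -0.14, -1.63, -1.46, -0.26 and -1.48. With 1 library left out the log2 ratio of summed counts (TMM) was 0.96 to 1.63 for all members. Scaled to protein-coding counts, an alternative chosen after seeing the data, it was 1.07.

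The replicate number as a block gave 12 histone models called higher, among them 1 for H2a and 4 for H4; 10 of the 11 calls were kept. Same-numbered libraries deviated together only weakly (r = 0.20 across 12234 genes, which are not independent), and the labels give no pairing. In the processing list, 3 were called lower with the block.

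Of the lists, variant histones had 0 called higher with library totals, DESeq2 and both TPM settings, 0 to 2 with 1 library left out, and 4 lower with library totals and on log2(TPM + 0.1), with 0 to 1 lower with 1 library left out. Processing genes had 1 higher and 15 lower with library totals, 0 and 0 on log2(TPM + 1), 0 and 15 on log2(TPM + 0.1), 0 lower with DESeq2, 3 lower without the filter, and 1 to 3 higher and 0 to 3 lower with 1 library left out. S-phase mRNAs had 1 and 13 with library totals, 0 and 0 on log2(TPM + 1), 0 and 15 on log2(TPM + 0.1), 1 lower with DESeq2, 4 higher without the filter, and 2 to 4 higher and 0 to 2 lower with 1 library left out. For comparison, library totals called 47.1% of all tested models lower and 3.95% higher. Shares of all models under the other alternatives were not taken, so the list counts there have no background.

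Signs turned on log2(TPM + 0.1) for Cdt1 (-0.029), Gins2 (-0.26), H1fx (-0.55), Hist1h2ag (-0.41), Hist1h2ap (-0.40), Hist1h2bg (-0.039), Hist1h2bp (-1.97), Hist1h4f (-0.16), Hist2h2aa2 (-2.15), Rrm1 (-1.74) and Zfp473 (-0.51). On log2(TPM + 1) they turned for Cdt1 (-0.015), Gins2 (-0.12), H1fx (-0.18), Hist1h2ag (-0.14), Hist1h2ap (-0.12), Hist1h2bg (-0.0072) and Zfp473 (-0.10). With library totals they turned for Mcm7 (-1.39), Rrm1 (-1.31) and Sympk (-1.13), and without IgG library 2 for Hist1h2bb (2.17); with any 1 library left out it ranged from -1.07 to 2.17. Whether called or not, 14 of the 29 named histone models changed sign with library totals and 18 on each TPM setting.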
